A study of Mus musculus with 42 samples.

Results

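The crypts examined were those of wild-type (WT) mice from the Mtg16-null colony 4 days after an injury with dextran sulfate sodium (DSS), set against untreated WT crypts of that colony. Members were chosen by label, as the WT libraries of the table of DSS-treated distal crypts (3 libraries) and of the table of baseline distal crypts (4 libraries), which makes 7 of the 42 samples of the series. The study concerns Mtg16 (also called Cbfa2t3), a transcriptional corepressor, and compared mice lacking it or carrying a point mutation with WT littermates, by RNA sequencing of isolated mouse colon crypts. All 7 libraries came from WT littermates on a C57/BL6 background, at least 8 weeks old, and each was made from crypts released with a chelating agent from the distal 5 cm of the colon. The treated mice drank 2% (w/v) DSS for 5 days and then plain water for 4 days. The baseline mice had no treatment. The labels do not say whether a library is 1 mouse or several, so the p-values below measure the spread between these libraries.

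DSS is a sulfated polysaccharide that strips epithelium from the mouse colon, most of all distally. In the days after it is withdrawn, crypts that survive divide, migrate over the wound and refill the surface with absorptive and goblet cells. Genes of innate defence, of matrix remodelling and of a fetal-like epithelial state are known to be switched on while this takes place, and genes of mature colonocytes are known to be low in young cells.

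Several features of the libraries touch the results. The number that opens a library label differed between the groups: it was 6217 for all 3 DSS libraries, 5094 for baseline replicates 1 and 2, and 4149 for baseline replicates 3 and 4. Treatment and this number therefore cannot be told apart. Between the baseline libraries of 5094 and those of 4149, limma called 3 of 13640 genes (0.022%) and edgeR called 0, while 1792 had an unadjusted p under 0.05 in limma. The 3 genes were Nnt (the second of 2 gene models of that name, encoding a mitochondrial transhydrogenase), Nlrp1b (an inflammasome sensor) and LOC102638448. Nnt stood at 0 and 0 in 5094 and at 1098 and 667 normalized counts in 4149, and at 591, 544 and 372 in the DSS libraries. Nlrp1b stood at 2.92 and 1.3 against 1424 and 691, and at 608, 949 and 6.72 after DSS. Sex was mixed as well. Xist, the RNA of the inactive X, was at 36984, 3.9, 39558 and 25270.4 in baseline replicates 1 to 4 and at 3352, 29775 and 0 in DSS replicates 1 to 3. Ddx3y, on the Y chromosome, was at 0, 1848, 0 and 0 at baseline and at 219, 138 and 1170.1 after DSS. DSS replicates 1 and 2 thus held both transcripts, which no baseline library did above 4 normalized counts of Xist. Depth was 35346459 to 68919445 reads at baseline and 52903006 to 59395435 after DSS.

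A further feature set the size of the main result. The 3 WT libraries and 4 libraries of Mtg16-/- mice after DSS carry the same label number, 6217, and in all 7 a block of genes kept an almost fixed ratio to Krt5, the basal keratin of stratified epithelium. In the WT libraries, Krt5 stood at 8541, 5306 and 5335 normalized counts after DSS and at 1.46, 1.3, 7.97 and 0 at baseline. Krt6a, a keratin of wounded stratified epithelium, followed at 6524, 3842 and 3992 against 0, 0, 3.62 and 1.16. In both genes replicate 1 was the highest DSS library, and no DSS library overlapped a baseline library. The block was not made of keratins alone. Foxj1, the master regulator of motile cilia, was at 922, 576 and 563 against 2.92, 1.3, 1.45 and 0, and Tubb3, a tubulin known from neurons, was at 2088, 1328 and 1407 against 13.1, 13, 9.42 and 9.28. Over the 7 libraries, the ratio to Krt5 had a coefficient of variation (CV, SD over mean) of 0.0176 for Krt6a, 0.0187 for Krt17, 0.039 for Foxj1 and 0.0371 for Tubb3.

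Genes listed in the DSS table alone followed the same course. Aqp5, a water channel of salivary, lacrimal and airway glands, had 2068, 1283 and 1544 reads in WT replicates 1 to 3. Sox2, a transcription factor of foregut, neural and sensory epithelium, had 1209, 843 and 840. Trp63, the regulator of basal cells, had 289, 202 and 271. These genes have no value in the baseline table and so took no part in the test.

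**Figure D1:**
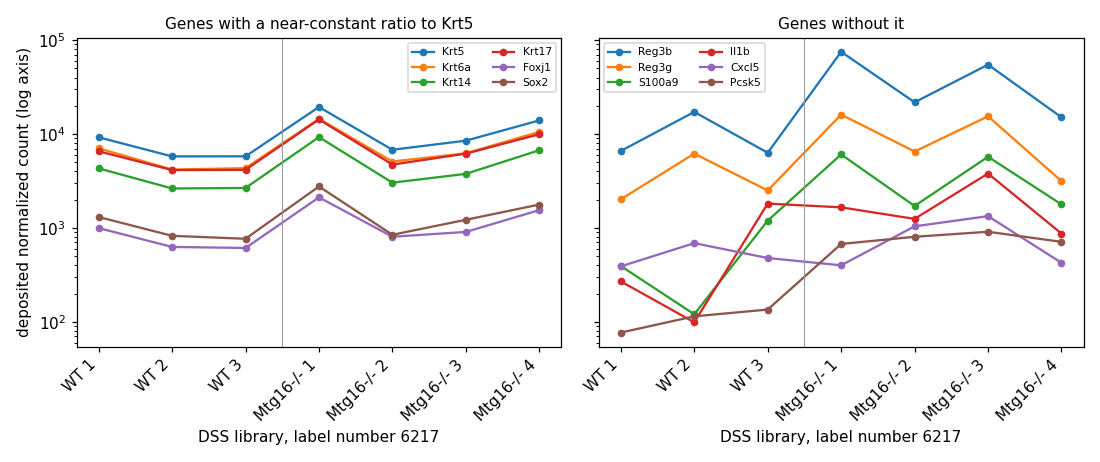
Deposited normalized counts (log axis) in the 7 DSS libraries of label number 6217, WT replicates 1 to 3 and Mtg16-/- replicates 1 to 4; each colour is 1 gene, and lines only join its values. In the left panel the 6 genes run parallel from library to library (CV of the ratio to Krt5 from 0.0176 for Krt6a to 0.0603 for Sox2 beyond Krt5 itself), and in the right panel Reg3b, Reg3g, S100a9, Il1b, Cxcl5 and Pcsk5 do not (0.667 to 1.00).

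Squamous markers bear on this block. Of 16 squamous epithelium markers, 9 were tested and 5 were higher (Krt6a, Krt5, Krt4, Krt14 and Krt13), all 5 of them in the block. The other tested markers on the list were not higher. Lor was at 24, 17 and 7.57 after DSS against 15.9 to 23.4 at baseline, Krt10 was at 117, 129 and 134 against 81.2 to 138, Serpinb5 was at 4083, 4905 and 4195 against 3806 to 4474, and Sbsn fell by 2.09 on the log2 scale (adjusted p = 0.0261, lost without any 1 of 5 libraries). Without Serpinb5, which colon crypts also expressed, the squamous markers summed to 12573 to 20641 normalized counts after DSS and 178.7 to 285 at baseline. In the WT crypts of the study's other colony 4 days after the same DSS course, whose label number was 5740, Krt5 was at 4.97, 5.57 and 7.97 normalized counts. The source of the block was not tested, so these values are levels in the libraries and are not assigned to cells of the crypt.

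Called genes were therefore divided by this ratio, after the values had been seen: a gene whose ratio to Krt5 had a CV under 0.25 over the 7 libraries of 6217 is called Krt5-proportional here. A gene at 1 level in all 7 libraries would have a CV of 0.394. The limit lies far above the CVs of Krt6a (0.0176) and Sox2 (0.0603), so a gene under it need not follow Krt5 closely. Of the higher genes under it, 63 had a baseline mean of at least 50 normalized counts. Below, inside and outside the block mean only under and over this limit. The division used the WT DSS libraries themselves, so it is a description and has no test.

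By limma on log2(normalized count + 1) over 14026 genes, 519 genes (3.7%) were higher after DSS and 173 (1.23%) were lower, at a Benjamini-Hochberg adjusted p under 0.05. Of the higher genes, 335 were Krt5-proportional, of the lower genes 0, and of all tested genes 1325. This left 184 higher genes (1.31% of those tested) outside the block. Of these 184, 105 were highest of the DSS libraries in replicate 1, against 323 of the 335 and 5915 of all 14026. Krt90 (CV 0.345) kept the library order of Krt5 as well, at 218, 125 and 126 after DSS. The limit therefore does not show that the 184 are free of the block. The median log2 fold change was 1.93 in those 184, -1.11 in the 173 lower genes and -0.0013 in all tested genes. Groups did not overlap in 2774 genes (19.8%), among them 689 of the 692 called (4.93%). The Krt5-proportional higher genes with a baseline mean under 10 normalized counts numbered 184 and held 0.0637% to 0.0998% of the normalized counts in the DSS libraries. Gene by gene, the median ratio of their level in DSS replicate 1 to that in replicate 2 was 1.63, and that of replicate 3 to replicate 2 was 0.997. With each table's own scaling, 2497 genes were higher and 106 lower, and that scaling moved the median gene by 0.277 (log2) toward DSS. The split between directions therefore depends on the scaling, and changes are given here relative to the median gene. Taking the baseline libraries of 1 label number alone leaves 2 of them, so fewer libraries and label number cannot be told apart in such losses, here and below. In that setting, 41 (5094) and 42 (4149) of the 87 called genes among 90 followed through the alternatives lost their call, and 32 kept it with each. Outside the block, those kept with each were S100a8, S100a9, Cxcl5, Pcsk5, Mmp13, Mmp9, Timp2, Tgm2, Col1a1, Gsdmc3, Slc20a1, Slc30a10, Pdzd7, Nr1d2 and Per2. The share of all tested genes, 3.7% higher and 1.23% lower, stands as the background of each list count below.

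**Figure D2:**
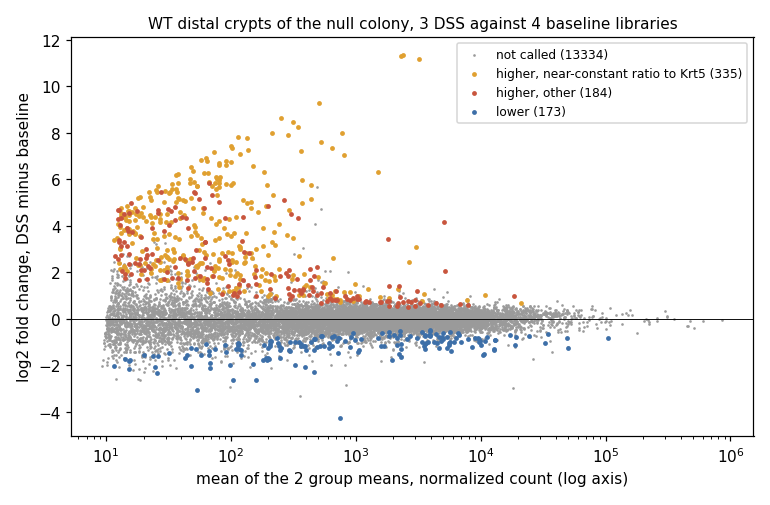
Log2 fold change (DSS minus baseline) against the mean of both group means (normalized counts, log axis), 1 point for each of 14026 genes. The 335 Krt5-proportional higher genes, labelled near-constant ratio to Krt5, hold the largest changes. The 184 other higher genes and the 173 lower genes lie at smaller ones.

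The targeted gene of the study was read first as a check of the WT labels. Cbfa2t3 stood at 1869.6, 1695 and 2323 after DSS and at 2014, 1871, 1148 and 1732 at baseline, so every library expressed it and the groups overlapped (log2 fold change 0.23 ± 0.21 SE, adjusted p = 0.534). Of 10 MTG corepressors, E proteins and Id proteins tested, 1 passed. Id4, an inhibitor of E proteins, was at 501, 599 and 462 against 285, 269, 121 and 253 (log2 fold change 1.23 ± 0.29, adjusted p = 0.038). That call was lost without any 1 of 5 of the libraries, with an adjusted p of up to 0.124.

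Antimicrobial lectins of the gut lining rose after DSS, outside the block. Reg3b, which binds Gram-negative bacteria, was at 6114, 15786 and 5823 normalized counts after DSS and at 496, 494, 64.5 and 2692 at baseline. Reg3g, its relative against Gram-positive bacteria, was at 1869.6, 5679.5 and 2308 against 308, 243, 81.9 and 850.4. Both were highest in DSS replicate 2, and the baseline libraries themselves spanned a wide range, with replicate 3 lowest and replicate 4 highest. The log2 fold change was 4.18 ± 0.94 for Reg3b (adjusted p = 0.0287) and 3.43 ± 0.64 for Reg3g (adjusted p = 0.0106). Reg3b lost its call without DSS replicate 1, 2 or 3 or baseline replicate 2 (adjusted p of up to 0.115), and Reg3g kept an adjusted p of at most 0.048 without any 1 library. With the 4149 baselines alone neither passed (adjusted p = 0.114 for Reg3b and 0.0575 for Reg3g). Of 32 tested antimicrobial and mucosal defence genes, 4 were higher and 3 lower, and the median log2 fold change was 0.17. The count of 4 was 2 with the 4149 baselines alone, 7 with DESeq2 and 11 with each table's own scaling. It was 8 with the replicate block (replicate number as a block, baseline replicate 4 left out). The count of 3 was 1 with the 5094 baselines alone. The other higher pair was S100a8 and S100a9, the subunits of calprotectin. The 3 lower genes were Ang4, Gsdmc3 and Gsdmc2. Ang4, a secreted ribonuclease of crypts, was at 271, 117 and 89.1 against 416, 756, 1310.4 and 569.7, with a log2 fold change of -2.29 ± 0.43 (adjusted p = 0.0104; 0.0962 with the 5094 baselines alone). Gsdmc2 and Gsdmc3, pore-forming gasdermins, had log2 fold changes of -0.79 and -0.98, and Gsdmc2 lost its call with the baselines of either label number alone (adjusted p = 0.0933 for 5094 and 0.0542 for 4149). Lcn2, which withholds iron from bacteria, overlapped between groups at 240.4 to 579.5 against 62.4 to 273 (adjusted p = 0.102), and Duox2, an epithelial oxidase, was at 19013 to 33722 against 21884 to 28876.

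The promoters of Reg3b and Reg3g are shown because both genes rose, and those of Mmp7, Mmp13 and Ifit3b because they hold a motif fixed for their list. Each window runs from 250 bases before to 50 after a RefSeq start of the gene on GRCm38.p6, written 5′ to 3′ on the strand of the gene, and capitals mark the motif on either strand. The Reg3b window (chr6:78370635-78370934, plus strand) holds TTCNNNGAA, the letters bound by STAT factors, once, and that of Reg3g (chr6:78468825-78469124, minus strand) does not hold it. The Mmp7 (chr9:7691840-7692139, plus strand) and Mmp13 (chr9:7272264-7272563, plus strand) windows each hold TGANTCA, the AP-1 letters, once. A second RefSeq start of Mmp7 (chr9:7692091-7692390) has a window with 0 matches, not printed here, and the Ifit3b window (chr19:34607707-34608006, plus strand) holds the interferon-stimulated response element, a repeat of GAAA, at 2 places.
Reg3b: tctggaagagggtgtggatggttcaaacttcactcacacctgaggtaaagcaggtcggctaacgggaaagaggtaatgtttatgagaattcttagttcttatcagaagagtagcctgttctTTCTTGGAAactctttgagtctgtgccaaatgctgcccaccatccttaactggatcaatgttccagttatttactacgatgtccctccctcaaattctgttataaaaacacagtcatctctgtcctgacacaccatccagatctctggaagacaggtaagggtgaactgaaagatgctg
Reg3g: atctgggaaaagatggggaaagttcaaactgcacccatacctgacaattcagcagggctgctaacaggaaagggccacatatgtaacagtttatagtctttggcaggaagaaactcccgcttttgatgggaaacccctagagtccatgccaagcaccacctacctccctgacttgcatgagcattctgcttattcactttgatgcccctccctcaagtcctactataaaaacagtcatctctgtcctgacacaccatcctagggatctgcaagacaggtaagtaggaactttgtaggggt
Mmp7: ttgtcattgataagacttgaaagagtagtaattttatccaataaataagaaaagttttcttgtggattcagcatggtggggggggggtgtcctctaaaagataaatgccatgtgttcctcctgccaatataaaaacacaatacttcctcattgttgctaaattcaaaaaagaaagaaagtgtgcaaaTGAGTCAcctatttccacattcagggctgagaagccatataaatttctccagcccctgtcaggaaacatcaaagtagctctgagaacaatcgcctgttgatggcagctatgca
Mmp13: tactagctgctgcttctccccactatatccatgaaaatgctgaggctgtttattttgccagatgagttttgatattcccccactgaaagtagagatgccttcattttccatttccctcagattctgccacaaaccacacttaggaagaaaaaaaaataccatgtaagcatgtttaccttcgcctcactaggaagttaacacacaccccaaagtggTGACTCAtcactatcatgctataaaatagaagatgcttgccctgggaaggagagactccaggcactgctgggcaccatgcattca
Ifit3b: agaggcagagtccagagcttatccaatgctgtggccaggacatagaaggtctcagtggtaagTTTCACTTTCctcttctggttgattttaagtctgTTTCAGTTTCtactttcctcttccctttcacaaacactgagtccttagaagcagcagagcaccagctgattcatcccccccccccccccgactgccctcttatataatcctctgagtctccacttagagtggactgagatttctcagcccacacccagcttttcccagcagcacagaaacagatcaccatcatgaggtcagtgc
Over the lists matched by symbol, TTCNNNGAA stood in 4 of 29 antimicrobial promoters (13.8%) against 9.55% of all 27025. TGANTCA stood in 6 of 25 matrix and wound repair promoters (24%) against 8.97% of all, and in 0 of 24 promoters of the immediate early list. The interferon-stimulated response element stood in 22 of 36 interferon-stimulated promoters (61.1%) and 5 of 18 MHC class I promoters (27.8%) against 3.99% of all. For the clock genes, CACGTG stood in 6 of 19 (31.6%) against 8.09% of all, though not in the windows of Nr1d2 or Per3. CCAAT stood in 36 of 50 mitosis (72%), 24 of 38 S phase (63.2%) and 10 of 11 MHC class II promoters (90.9%) against 41.1%. TTTGAA stood in 38 of 50 mitosis promoters (76%) against 20.2%, and TTTGGCGC or TTTCGCGC in 14 of 38 S phase promoters (36.8%) against 0.929%. A match describes the letters of the window and was not tested as a bound site.

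Neutrophil genes rose after DSS, unevenly between libraries. Of 12 tested neutrophil markers, 10 were higher and 0 lower, none of them Krt5-proportional, and 10 of the 12 were highest in DSS replicate 3. S100a9 was at 363, 110.3 and 1101 after DSS and at 7.3, 10.4, 7.97 and 12.8 at baseline (log2 fold change 5.09 ± 0.62, adjusted p = 0.000615). S100a8 was at 475, 383 and 894 against 13 to 33.6 (4.51 ± 0.39, adjusted p = 6.23e-05). Csf3r, the receptor of the neutrophil growth factor G-CSF, was at 108, 32.3 and 208 against 5.84, 5.2, 9.42 and 16.2 (adjusted p = 0.0102), and Cxcr2, the receptor that draws neutrophils into tissue, was at 56, 34.1 and 146 against 6.96 to 16.1 (adjusted p = 0.0238). Ly6g, which makes up most of the list's summed level here, did not pass the test (4416, 7231 and 4298 against 6526 to 8573). Without Ly6g the neutrophil markers summed to 2160, 1441 and 5233 after DSS and 555 to 797 at baseline. In bulk crypts, more neutrophils among the crypts, more RNA per neutrophil and expression of these genes by other cells cannot be told apart. The count of 10 was 4 with the 5094 and 5 with the 4149 baselines alone. Without DSS replicate 1 the list fell to 3 called genes, and adjusted p reached 0.0785 for Csf3r and 0.0917 for Cxcr2.

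Il1b, an interleukin of activated myeloid cells, was at 249, 90.6 and 1674 normalized counts against 13 to 23.2 (log2 fold change 4.31 ± 0.76, adjusted p = 0.00747). Ptgs2, which makes prostaglandin precursors, was at 10, 11.7 and 312 after DSS and at 0 in all 4 baseline libraries (adjusted p = 0.0166). Against a floor of 3 reads in each baseline library, Ptgs2 was at least 31.9-fold higher in mean and at least 2.87-fold higher in its lowest DSS library. Hp, the haemoglobin scavenger haptoglobin, was at 75.1, 13.5 and 329.5 against 0 to 1.46 (adjusted p = 0.00528). Each of these was highest in replicate 3. Of 35 tested cytokines, chemokines and receptors, 4 were higher (Cxcl3, Il1b, Cxcl5 and Ccl9) and 1 lower (Il15, a survival factor of intraepithelial lymphocytes, log2 fold change -1.09 ± 0.27, adjusted p = 0.0439), and the median log2 fold change was -0.043. The count of 4 higher was 2 with the baselines of either label number alone, and 4 genes were lower without DSS replicate 2. Cxcl5, an epithelial chemokine that attracts neutrophils, behaved more evenly, at 360.3, 632 and 440.5 against 114, 91, 142 and 92.8 (2.09 ± 0.26, adjusted p = 0.000631). Ccl9 was at 506, 576 and 503 against 178 to 267 (1.26 ± 0.20, adjusted p = 0.00381). Without DSS replicate 1, adjusted p reached 0.0873 for Cxcl3 and 0.0519 for Hp, and Il15 lost its call without any 1 of 5 libraries. Il1b and Ptgs2 lost theirs with the baselines of either label number alone (adjusted p of up to 0.0662 and 0.131), and Ccl9 with those of 4149 (0.0733).

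Fewer of the other leukocyte and stromal markers passed. Of 17 macrophage and dendritic cell markers, 8 plasma and B cell markers and 14 T and NK cell markers tested, 0 were called by limma or edgeR. DESeq2 called 8 of the macrophage and dendritic cell markers and 1 plasma and B cell marker higher, and limma called 9 macrophage and dendritic cell markers higher without DSS replicate 2, 7 with the replicate block and 5 with each table's own scaling. The median log2 fold change of macrophage and dendritic cell markers was 0.97, and without Cd14, which crypts also expressed, they summed to 946 to 2640 after DSS and 696 to 1093 at baseline. Mcpt1 and Mcpt2, proteases of mucosal mast cells, were higher, Mcpt1 at 1029, 393 and 746 against 139, 146, 156 and 375 (1.85 ± 0.40, adjusted p = 0.0225), while the other 3 of 5 tested mast cell markers did not pass. Both lost their call without any 1 of 5 libraries. Of 8 tested fibroblast markers, 3 were higher, 1 of them, Fbln1, Krt5-proportional. Col1a1, a fibrillar collagen chain, was at 274, 200.1 and 182 against 7.3, 52, 19.6 and 22 (3.34 ± 0.52, adjusted p = 0.00316), and Sparc, a matrix protein, was at 61.1, 51.1 and 58.8 against 4.38 to 35.1 (adjusted p = 0.0498, lost without any 1 of 6 libraries). Fibroblast markers summed to 1738 to 2624 after DSS and 918 to 1241 at baseline, and without Fbln1 to 788 to 1131 and 422 to 736. Their part in the matrix genes below was not tested.

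Of 10 epithelium markers tested, 0 were called by limma, edgeR or DESeq2, their summed level was 966439 to 1294580 after DSS and 1065280 to 1158440 at baseline, and Epcam stood at 82452, 105759 and 105450.0 against 97459.5 to 112118.

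**Figure D3:**
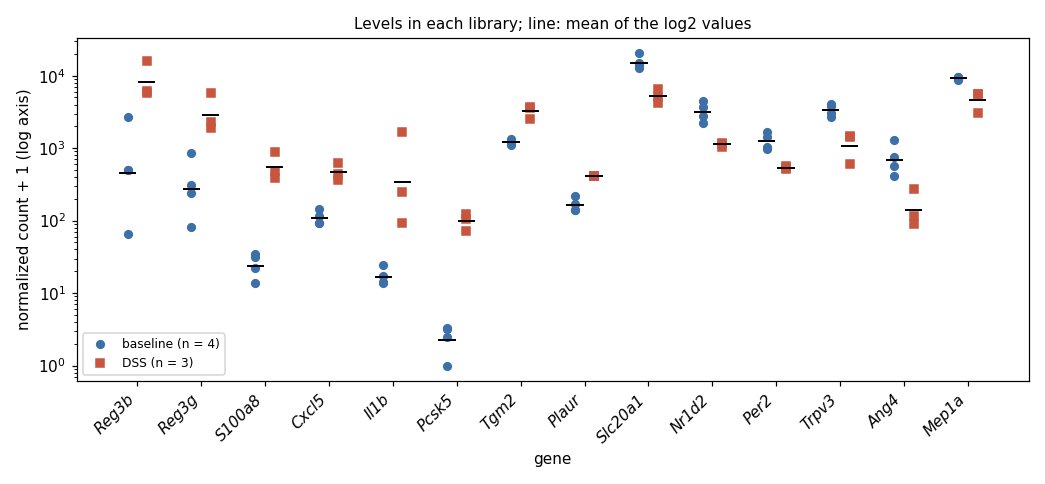
Normalized count + 1 (log axis) of 14 genes in each library, circles for the 4 baseline and squares for the 3 DSS libraries, with a line at the mean of the log2 values. In each gene shown the DSS libraries lie wholly above (Reg3b to Plaur) or wholly below (Slc20a1 to Mep1a) the baseline libraries.

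Some matrix proteases, a protease inhibitor and a convertase rose. Of 31 tested matrix remodelling and wound repair genes, 9 were higher (2 of them, Tnc and Has2, Krt5-proportional) and 0 lower, and the list's median log2 fold change was 0.52. The count of 9 was 6 with the 5094 baselines alone and 15 with each table's own scaling. Pcsk5, a proprotein convertase, was at 71.1, 105 and 124 normalized counts after DSS and at 1.46, 0, 2.17 and 2.32 at baseline (log2 fold change 5.45 ± 0.53, adjusted p = 0.000124). Mmp13, a collagenase, was at 139, 87.9 and 167 against 0 to 3.62 (5.85 ± 0.55, adjusted p = 0.000112), and its ratio to Krt5 had a CV of 0.281, just outside the limit. Mmp7, an epithelial matrix protease, was at 468, 143 and 77.3 against 14.6, 20.8, 24.6 and 33.6 (2.89 ± 0.54, adjusted p = 0.0104). Without DSS replicate 1 its log2 fold change was 2.18, and its call was lost with the baselines of either label number alone (adjusted p = 0.0535 for 5094 and 0.0835 for 4149). Fn1, the matrix glycoprotein fibronectin, was at 248, 119 and 377 against 23.2 to 54.6 (2.82 ± 0.43, adjusted p = 0.00258; 0.05004 with the 5094 baselines alone). Timp2, an inhibitor of these proteases, was at 301, 201 and 221 against 55.8 to 95.1 (1.79 ± 0.27, adjusted p = 0.00277). Mmp9, which is also on the neutrophil list, was at 123, 20.6 and 213 against 0 to 7.24 and lost its call without DSS replicate 1 (adjusted p = 0.08). Adam8 was higher as well and lost its call without any 1 of 5 libraries.

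Genes of fetal-like and revival epithelium were divided. Of 40 tested, 10 were higher and 0 lower, 7 of the 10 being Krt5-proportional, and the median log2 fold change was 0.32. The count of 10 was 6 with the 4149 baselines alone and 23 with each table's own scaling, and without DSS replicate 2 limma called 4 members lower. Outside the block were Plaur, Ly6d and Vim. Plaur, the urokinase receptor of migrating epithelium, was even across the DSS libraries at 415, 412 and 408 against 166, 139, 138 and 215 (1.34 ± 0.21, adjusted p = 0.00357; 0.0583 with the 4149 baselines alone). Vim, the filament protein of mesenchyme, was at 775, 458 and 973 against 264 to 401 (1.12 ± 0.26, adjusted p = 0.0354) and lost its call without any 1 of 5 libraries. The defining markers of the fetal-like and revival states overlapped or missed the threshold. Ly6a (Sca-1) was at 38312, 41944 and 29793 against 35613 to 45056 (adjusted p = 0.677), Clu at 92.1, 75.4 and 64.7 against 40.3 to 97.8 (adjusted p = 0.802) and Anxa1 at 10934, 11746 and 12523 against 9193 to 10126 (log2 fold change 0.28 ± 0.12, adjusted p = 0.205). Tgm2, a transglutaminase that cross-links proteins, and Lrg1, a glycoprotein induced by inflammation, stood outside the list fixed here and belong to the study's own composite set of injury and regeneration genes. Tgm2 was at 3723, 3534 and 2544 against 1092 to 1342 (1.42 ± 0.16, adjusted p = 0.000416), and Lrg1 was at 10643, 11041 and 3712 against 1097 to 2537 (2.06 ± 0.39, adjusted p = 0.0119, reaching 0.0951 without DSS replicate 1).

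The study's regeneration gene sets gave counts of the same kind. Of 145 tested genes of the set for colitis epithelium under DSS, 47 were higher, 22 of them Krt5-proportional, and 1 lower (median log2 fold change 0.66). Of 238 tested genes of the fetal epithelial signature, 31 were higher (20 Krt5-proportional) and 0 lower (median 0.16). Of 59 tested genes of the composite injury and regeneration signature, 9 were higher (1 Krt5-proportional) and 0 lower (median 0.20). The revival signature around Clu had 11 of 391 higher and 4 lower (median 0.052), the revival stem cell cluster 4 of 49 higher and 1 lower (median -0.079), and the signature of dedifferentiating Ascl2+ cells 15 of 197 higher (10 Krt5-proportional) and 3 lower (median 0.22). The share of all tested genes was 3.7% higher and 1.23% lower.

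**Figure D4:**
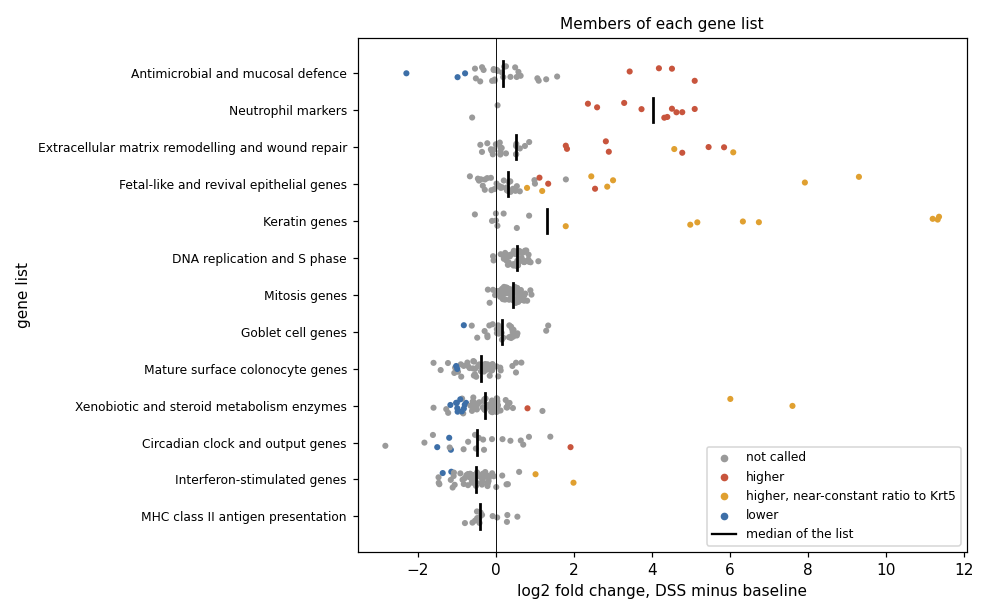
Log2 fold change (DSS minus baseline) of the tested members of 13 gene lists, 1 point a gene and a black line at the median of each list. Grey points were not called, blue were lower, red were higher, and yellow were higher and Krt5-proportional (labelled near-constant ratio to Krt5). All 8 called members of the keratin list are yellow, the 10 called neutrophil markers are red, and the S phase and mitosis lists lie mostly right of 0 with no point called.

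Lgr5, the marker of crypt base columnar stem cells, was at 355, 487 and 469 against 365, 267, 452 and 300.5 (log2 fold change 0.35 ± 0.22, adjusted p = 0.384), and Ascl2, their transcription factor, was at 424, 239 and 269 against 323 to 442 (-0.25 ± 0.23, adjusted p = 0.557). By exact permutation, two-sided, p was 0.171 for Lgr5 and 0.343 for Ascl2, where 0.0571 is the smallest that 3 against 4 libraries allow. Of 33 tested stem cell genes, 1 was higher, the WNT inhibitor Apcdd1, at 36, 26 and 30.3 against 2.92, 3.9, 12.3 and 10.4 (adjusted p = 0.046, lost without any 1 of 5 libraries). DESeq2 called 3 stem cell genes higher, and limma with each table's own scaling 8. Of 50 tested S phase genes, 48 had a positive log2 fold change, with a median of 0.55, and 58 of 62 mitosis genes did, with a median of 0.43, against 6994 of all 14026. None of either list was called by limma. edgeR called 1 S phase gene, DESeq2 called 13 S phase and 5 mitosis genes higher, and limma without DSS replicate 3 called 11 S phase genes. With each table's own scaling, limma called 31 S phase and 25 mitosis genes higher, and with the replicate block 4 and 1. Mki67, the proliferation marker, was at 11309.8, 24024 and 18303 against 9859 to 20918 (adjusted p = 0.902). The higher members among 47 tested genes of amino acid supply and the stress response were Asns at 3919, 3067 and 1979.6 against 1308 to 1668 (0.95 ± 0.22, adjusted p = 0.0299), Psat1 and Aldh18a1. Each lost its call without any 1 of 6 libraries, and the count of 3 was 0 with the baselines of either label number alone, 9 with DESeq2 and 18 with each table's own scaling.

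Jag1, a Notch ligand, and Notch3 and Hey1, a receptor and an effector of the pathway, were the 3 called of 17 tested Notch pathway genes, all higher and all Krt5-proportional. Jag1 was at 2092, 1689 and 1605 against 692, 818, 699.8 and 717 (1.29 ± 0.15, adjusted p = 0.000516). Of 17 tested EGF family ligands, receptors and feedback inhibitors, 0 were called by limma or edgeR, and DESeq2 called 1 higher.

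Pdzd7, a scaffold protein gene, was at 103, 128 and 219 normalized counts after DSS and at 606, 665, 884 and 391 at baseline (log2 fold change -2.09 ± 0.32, adjusted p = 0.00255), and it was called under all 19 alternatives. Slc20a1, a sodium-phosphate cotransporter, was at 4228, 6617 and 5038 normalized counts after DSS and at 20296, 13777, 12768 and 14761 at baseline (log2 fold change -1.54 ± 0.20, adjusted p = 0.000792). The groups stood clearly apart, and the adjusted p without any 1 library was at most 0.00718. Trpv3, a cation channel of distal colon, was at 601, 1451 and 1409.7 against 2727 to 4129 (-1.66 ± 0.29, adjusted p = 0.007; 0.077 with the 4149 baselines alone). Slc30a10, a manganese exporter, was at 19, 64.6 and 47.1 against 145 to 502 (-2.65 ± 0.47, adjusted p = 0.00771). Slc37a2, a sugar-phosphate exchanger, was at 3457, 5683 and 7079 against 9245 to 22882 (-1.52 ± 0.31, adjusted p = 0.0174, reaching 0.0981 without DSS replicate 1). Adamts9, a matrix protease, was at 10, 52.9 and 33.6 against 119.5 to 225 (-2.64 ± 0.48, adjusted p = 0.0089; 0.0652 and 0.0861 with the baselines of 5094 and of 4149 alone). Hmga1b, a copy of the chromatin protein gene Hmga1, was at 52, 44.9 and 35.3 against 74.4 in baseline replicate 1 and 1694 to 2128 in the others (adjusted p = 0.0304, lost without any 1 of 5 libraries), and its level is uncertain because reads can be shared between the copies.

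Of 49 tested genes of mature surface colonocytes, 2 were lower and 0 higher, and 41 of the 49 had a negative log2 fold change, with a median of -0.38. Mep1a, a brush border protease, was at 3046, 5548 and 5661 against 8619 to 9719 (-1.02 ± 0.20, adjusted p = 0.0162; 0.136 with the 5094 and 0.12 with the 4149 baselines alone), and Sult1a1, a sulfotransferase, was at 4769, 2619 and 5269.8 against 6886 to 9572 (adjusted p = 0.0348, lost without any 1 of 4 libraries). Aqp8 and Car4, a water channel and a carbonic anhydrase of surface cells, overlapped between groups (adjusted p = 0.144 and 0.211). Without DSS replicate 2, limma called 11 of these genes lower, and DESeq2 called 11 with all libraries, whereas the baselines of either label number alone gave 0. Of 72 tested xenobiotic and steroid metabolism enzymes, 10 were lower and 3 higher, with a median of -0.28. The flavin monooxygenase Fmo5 was at 265, 278 and 409 against 540.4 to 891 (-1.16 ± 0.23, adjusted p = 0.0163, reaching 0.08 without DSS replicate 1, lost without baseline replicate 2 and 0.203 with the 4149 baselines alone), and the carboxylesterase Ces2b and the cytochrome Cyp3a13 were lower as well, and lost their calls without any 1 of 5 and of 4 libraries. The count of 10 ranged from 1 (without baseline replicate 4) to 16 (without DSS replicate 2) when 1 library was left out, and it was 0 with the 4149 baselines alone, 1 with the 5094 baselines alone and 17 with DESeq2. Of the 3 higher enzymes, Cyp4b1 and Gsta2 were Krt5-proportional, Cyp4b1 at 1418, 863 and 868 against 2.6 to 5.84. Ppargc1a, a coactivator of mitochondrial genes, was the 1 lower of 36 fatty acid oxidation and ketogenesis genes, at 818, 1497 and 1804 against 1946 to 3749 (adjusted p = 0.0481, lost without any 1 of 4 libraries). Of 32 goblet cell genes, 1 was lower, Nxpe4, at 5503, 6194 and 7749.5 against 8979 to 15066 (adjusted p = 0.0313, lost without any 1 of 4 libraries), and 24 of 32 had a positive log2 fold change. With each table's own scaling, 15 goblet cell genes were called higher and 0 lower, and with the replicate block 4 higher and 1 lower. Hpgds, a prostaglandin D2 synthase, was the 1 lower of 27 tested tuft cell genes, at 43, 116 and 118 against 200.3 to 365 (-1.77 ± 0.36, adjusted p = 0.0181, reaching 0.0583 without baseline replicate 3), and DESeq2 called 5 tuft cell genes lower. Bmp2, a signal of the upper crypt, was at 1268, 2669.8 and 2839.6 against 3987 to 6251 (-1.16 ± 0.27, adjusted p = 0.0334, lost without any 1 of 4 libraries). Apob and Selenop, secreted carriers of lipid and selenium, fell by 1.41 and 1.32 on the log2 scale, each losing its call without any 1 of 4 libraries. Of 22 Hox genes tested, 20 had a negative log2 fold change and 1 was lower, Hoxd10 (-1.26 ± 0.25, adjusted p = 0.0133, reaching 0.052 without DSS replicate 1). The count of lower Hox genes was 4 without DSS replicate 2, 6 with DESeq2 and 9 with the replicate block.

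Nr1d2, a repressor of the circadian loop, was at 1042, 1192 and 1145 against 3713, 2810.2, 2196 and 4496 (log2 fold change -1.50 ± 0.22, adjusted p = 0.00218). Per2 was at 568, 537 and 512 against 1655, 1025, 966 and 1420.1 (-1.20 ± 0.20, adjusted p = 0.00606), and Per3 was at 385, 322 and 478 against 698 to 1132 (-1.15 ± 0.23, adjusted p = 0.0145, reaching 0.0651 without DSS replicate 1). These 3 were the lower ones of 22 tested clock and output genes, and the count was 6 without baseline replicate 3, with DESeq2 and with the replicate block. Bhlhe41, another repressor of the loop, was higher, at 30, 18.8 and 28.6 against 4.38 to 7.97, and lost its call without any 1 of 4 libraries. Dbp and Nr1d1, outputs known to swing widely over the day, did not pass (adjusted p = 0.0867 and 0.0918), and Dbp ran from 298 to 3339 among the baseline libraries. The hour at which crypts were taken is not given in the sources used here.

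Of 55 tested interferon-stimulated genes, 7 had a positive log2 fold change, the median was -0.51 and 36 were highest of the DSS libraries in replicate 3. Ifit3b, an antiviral effector, was lower at 90.1, 200.1 and 222 against 334, 389, 454 and 477 (-1.36 ± 0.30, adjusted p = 0.0281, reaching 0.0831 without baseline replicate 3), as was Ifit1bl1. The count of 2 lower genes was 0 without baseline replicate 3 and with the 5094 baselines alone, 5 with the 4149 baselines alone or the replicate block, and 7 with DESeq2. Rsad2 and Mx2, antiviral proteins as well, were higher and Krt5-proportional, Rsad2 at 985, 823 and 796 against 324 to 530.2 (lost without DSS replicate 1, adjusted p = 0.0585, and with the 4149 baselines alone, 0.156). Of 14 MHC class II genes 0 were called by limma or edgeR, 2 by DESeq2, and the median was -0.40. Of 21 MHC class I genes 1 was lower, H2-Q2 (-0.80 ± 0.16, adjusted p = 0.0171, reaching 0.0567 without baseline replicate 3), a member of a family of similar genes whose reads may be shared.

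The same course of DSS was given to WT mice of the study's second colony, which carries the Mtg16 P209T mutation, with 3 DSS libraries (label number 5740) and 3 baseline libraries (5094). A fit of all 13 libraries asked whether the change after DSS differed between colonies. It differed in 2561 of 13875 genes (18.5%), with 1695 (12.2%) higher in the null colony and 866 (6.24%) lower. Of the 1695, 226 were Krt5-proportional. In that fit 440 genes were higher and 222 lower in the null colony, against 2842 and 3493 in the P209T colony (20.5% and 25.2%). After DSS, colony and label number (6217 against 5740) cannot be told apart, while 5094 opens the labels of baseline libraries in both colonies. With the 5094 baselines alone, the count of 1695 became 963 and that of 866 became 644. Without P209T DSS replicate 3 the count of 1695 became 3641, and without P209T DSS replicate 1 it became 873.

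Genes of the null colony were then read in the P209T colony, where none had been selected. Of the 162 higher genes outside the block that were tested there, 135 had a positive log2 fold change (7280 of all 13875 did), 59 were called higher and 10 lower. Of 173 lower genes, 132 had a negative log2 fold change, 62 were called lower and 12 higher. Of 275 Krt5-proportional genes, 164 were positive, 46 called higher and 26 lower, with a median log2 fold change of 0.24 against 2.83 in the null colony. Pcsk5 rose by 5.42 on the log2 scale in the null colony and by 6.35 in the P209T colony (difference -0.93 ± 0.74, adjusted p = 0.381). Reg3b rose by 4.15 in the null colony, and its value in the P209T colony was 2.34 (adjusted p = 0.0988, difference adjusted p = 0.408). Nr1d2 had -1.53 and -1.64 (difference adjusted p = 0.907), whereas Per2 had -1.22 and 2.28 (difference -3.50 ± 0.43, adjusted p = 0.000666). Mmp13 had 5.81 in the null colony and -1.96 in the P209T colony (difference 7.77 ± 0.85, adjusted p = 0.000341), and Cxcl5 had 2.07 and -1.28 (difference adjusted p = 0.00669). Jag1 had 1.26 and -0.16 (difference adjusted p = 0.00417). Mep1a had -1.04 and 0.18 (difference adjusted p = 0.0158). The 10 genes with the smallest adjusted p for the difference, led by Krt17 (11.28 against 2.45), were all Krt5-proportional. Among the rest, Eppk1, an epithelial cytolinker, had -0.96 and 1.08 (difference -2.05 ± 0.19, adjusted p = 0.000156). Mitosis genes had a median of 0.41 in the null colony, with 0 called lower, and -1.31 in the P209T colony, where 37 of 62 were lower.

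**Figure D5:**
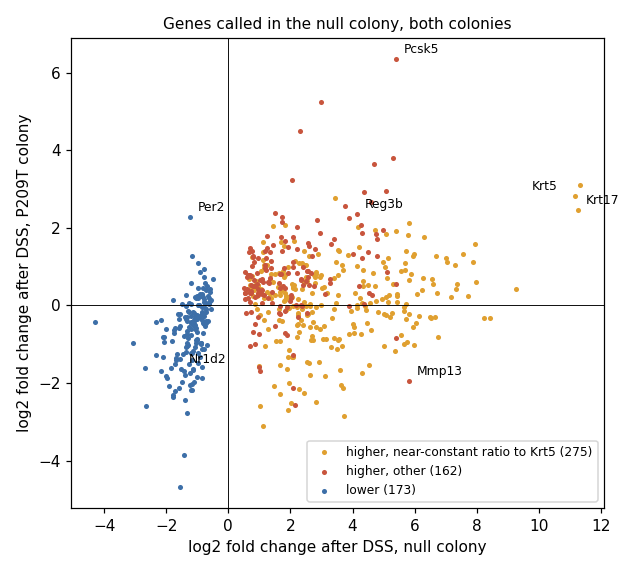
Log2 fold change after DSS in the null colony (x axis) and in the P209T colony (y axis), in the fit of 13 libraries, for the 275 Krt5-proportional, 162 other higher and 173 lower genes of the null colony. Lower genes lie mostly below 0 on both axes (132 of 173), other higher genes mostly above (135 of 162), and yellow Krt5-proportional genes spread along the x axis near 0 on the y axis.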

How the data were processed

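Crypt RNA was sequenced by the authors. Per the labels, their processing notes name fastp 0.20.0, Salmon 1.3.0, R 3.6.3, DESeq2 1.26.0 and the mm10 build. The deposited values are gene counts divided by DESeq2 size factors within each table (a signal, not raw counts), and 1 read of a library is a fixed step. Whole reads were recovered by dividing each column by its smallest positive step: 100% of values came out whole within 0.05. The 17511 Ensembl IDs in both tables (of 18195 and 18401) were scaled over the 7 libraries by TMM, so that at least 99.98% of each library's reads were kept, and called normalized counts. Genes with a mean of at least 10 were tested with limma 3.58.1 (trend) on log2(value + 1), two-sided, with Benjamini-Hochberg adjustment at 0.05. edgeR 4.0.16 and DESeq2 1.42.0 on the recovered reads were alternatives (532 higher and 131 lower with edgeR, 817 and 463 with DESeq2), run in R 4.3.3. On simulated counts for this comparison (13922 genes, 200 changed), 59.7% of 2-fold, 96.97% of 4-fold and 100% of 8-fold changes were called, and 7.57% of calls were false. Groups came from the labels. Members, gene lists and named genes were chosen with earlier results of these data known. Genes were named from the 15 largest non-overlapping changes a direction with a mean of at least 100, and from called or defining list members. Not all of these are printed. Counts over named genes cover 90 of them, picked with their values known, that were followed through the alternatives. The limit on the ratio to Krt5 was chosen after seeing the data. Promoters came from RefSeq, GRCm38.p6. Replicate numbers did not pair the libraries.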

Additional observations from a re-analysis of the deposited data

Results flagged for a closer look

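Responses to DSS in the null and the P209T colony differed in 2561 genes by the test of the difference itself. In 7 of the 90 genes followed through the alternatives, 1 of the 4 baseline libraries was flagged as an outlier, where chance alone gives about 1 in 20 groups. These were Id4 in replicate 3 (121 normalized counts), Igfbp2 in replicate 2 (1.3), Gsdmc2 in replicate 3 (17308), S100a11 in replicate 3 (4672), Mcpt1 in replicate 4 (375), Mylk in replicate 1 (2662) and Hmga1b in replicate 1 (74.4). A flag does not need a wide gap, since Igfbp2 was at 0 in the other 3 baseline libraries. The 90 genes were picked with their values known and share the same libraries, so the rate of 1 in 20 does not test the count of 7. The part of the flagged values in the calls is given by the values without single libraries.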

How the results depend on the processing

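Of the 87 called genes among the 90 followed, 31 stayed past the threshold under every one of 19 alternatives that gave a value, and 43 when any 1 library was left out. Against 519 higher and 173 lower genes, DESeq2 gave 817 and 463, a minimum mean of 50 gave 249 and 103, each table's own scaling gave 2497 and 106, Xist as a covariate gave 92 lower, baseline libraries of 5094 alone gave 28 lower and of 4149 alone 44 lower. Leaving out the Krt5-proportional genes, an alternative chosen after seeing the data, gave 184 higher. Leaving out 1 library gave 277 to 545 higher and 71 to 636 lower: without DSS replicate 1 there were 277 and 80, without DSS replicate 2 there were 636 lower, and without baseline replicates 1 to 4 there were 77, 71, 83 and 114 lower. With the replicate number as a block, which leaves out baseline replicate 4, there were 709 higher and 451 lower. The numbers did not pair the libraries, since deviations of same-numbered libraries correlated at -0.012, 0.025 and -0.019. Block counts, here and above, therefore rest on a pairing that these libraries do not show. For the difference between colonies, the block gave 641 higher and 63 lower responses, the 5094 baselines alone 963 higher, and leaving out 1 of 13 libraries 873 to 3641 higher and 212 to 1434 lower. Between 5094 and 4149, edgeR gave 0 lower in place of 3. Ascl2 changed sign with each table's own scaling (0.025). The causes were not tested. Counting depth limits genes near 0, and 3 against 4 libraries limit changes near 2-fold.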
